A study of Mus musculus with 26 samples.

Results

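The subcortical maternal complex is a protein assembly that the growing oocyte builds and passes to the embryo, and the genes of 8 of its components were followed in single blastomeres of the mouse 8-cell embryo. They were taken by symbol, as Nlrp5, Ooep, Tle6, Khdc3, Padi6, Zbed3, Nlrp2 and Nlrp4f, and all 8 were found among the 55487 genes of the deposited table. The cells came from C57BL/6 embryos made by in vitro fertilization and were picked by hand. RNA and DNA of the same cell were separated and sequenced, so that a full-length total RNA profile and a map of DNA replication were paired for each cell. Values were analysed for 9 cells, namely cells 1, 6 and 7 of embryo 1 and cells 2, 3, 5, 6, 7 and 8 of embryo 2. All carry the same strain background and no treatment. The study placed the embryo 1 cells before or after S phase and the embryo 2 cells in S phase, and Xist RNA was high in embryo 1 only whereas Y-linked RNA was on in embryo 2 only. Embryo, cell cycle phase and sex therefore cannot be told apart. Each embryo is 1 biological replicate, so that no test between embryos was possible and the values below are descriptions.

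The complex lies beneath the plasma membrane of the egg and is lost where blastomeres touch each other. NLRP5 (also MATER), OOEP (FLOPED), TLE6 and KHDC3 (FILIA) form its core. PADI6 is needed for the cytoplasmic lattices of the egg, ZBED3 has been placed with the complex in spindle positioning, and NLRP2 and NLRP4F are NLRP proteins that bind it. The mRNAs are made in the oocyte and, as generally described, decline once the embryonic genome is switched on, while the proteins outlast them. The assay read only the RNA, and it did not tell RNA left from the oocyte from RNA made by the embryo.

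The promoters of the 4 core genes are shown because the RNA level of Khdc3, given next, lay far above those of the others. Each window runs from 250 bases before to 50 bases after an annotated start, 5′ to 3′ on the strand of the gene, from RefSeq on GRCm38.p6, and capitals mark E-boxes (CANNTG), the sites bound by basic helix-loop-helix proteins such as the oocyte factor FIGLA.
Khdc3 chr9:73102148-73102447, plus strand: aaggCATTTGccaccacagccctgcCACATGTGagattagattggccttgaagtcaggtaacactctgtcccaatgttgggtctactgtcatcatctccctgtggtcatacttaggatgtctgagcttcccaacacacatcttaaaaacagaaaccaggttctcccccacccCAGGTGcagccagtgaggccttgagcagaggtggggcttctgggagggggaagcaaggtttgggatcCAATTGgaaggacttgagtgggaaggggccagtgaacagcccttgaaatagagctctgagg
Ooep chr9:78378539-78378838, minus strand: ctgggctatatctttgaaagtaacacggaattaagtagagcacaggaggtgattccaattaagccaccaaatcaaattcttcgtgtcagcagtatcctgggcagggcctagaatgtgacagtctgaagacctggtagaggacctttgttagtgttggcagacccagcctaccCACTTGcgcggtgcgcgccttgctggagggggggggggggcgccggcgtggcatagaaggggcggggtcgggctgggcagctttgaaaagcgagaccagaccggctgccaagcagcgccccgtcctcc
Nlrp5 chr7:23385639-23385938, plus strand: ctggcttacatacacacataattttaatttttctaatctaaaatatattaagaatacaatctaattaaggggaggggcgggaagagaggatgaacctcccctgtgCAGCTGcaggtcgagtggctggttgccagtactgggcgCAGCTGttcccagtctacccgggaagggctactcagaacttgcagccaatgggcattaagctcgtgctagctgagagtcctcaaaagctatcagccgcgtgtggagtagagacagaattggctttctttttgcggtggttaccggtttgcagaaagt
Tle6 chr10:81600851-81601150, minus strand: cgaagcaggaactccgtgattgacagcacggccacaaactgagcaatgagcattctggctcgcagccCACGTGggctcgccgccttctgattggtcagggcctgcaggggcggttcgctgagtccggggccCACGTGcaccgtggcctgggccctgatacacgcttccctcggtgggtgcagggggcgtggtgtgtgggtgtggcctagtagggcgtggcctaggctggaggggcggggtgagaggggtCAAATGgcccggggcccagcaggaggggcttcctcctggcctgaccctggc

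The Khdc3 window held 5 E-boxes, of which a pair overlap each other, and not a single CpG dinucleotide. The Ooep window held 1 E-box and 15 CpG, the Nlrp5 window 2 and 9, and the Tle6 window 3 and 18. A further window for a downstream start of Nlrp5 held 2 E-boxes and 1 CpG, and that of Tle6 held 4 and 3. The median over 32851 promoter windows of the same length was 7 CpG. All 8 members matched the promoter table, with 12 windows between them, and 11 of these windows held an E-box. Over all promoters the share was 72.3%. The homeobox motif TAATTG, as bound by NOBOX, was found in 2 of the 12 windows against 8.00% of all promoters, CCAAT in 7 against 37.4% and TATAAA in 2 against 13.6%. Both strands were searched. In Khdc3 an E-box overlapped a CCAAT match, and in Ooep the TAATTG and CCAAT matches overlapped. These matches describe letters and were not tied to any RNA level.

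Khdc3 was the abundant transcript of the complex in every cell, and the other 7 genes were low. Khdc3 (ENSMUSG00000092622.8, chr9:73101836-73104438, plus strand, mm10), which encodes the KH-domain protein needed for correct chromosome segregation in cleavage, was measured in TPM, a unit that divides reads by transcript length and scales each cell to the same total. Its level was 608, 411 and 752 TPM in cells 1, 6 and 7 of embryo 1, and between 416 and 525 TPM with a median of 445 TPM in embryo 2. The mean was 499 TPM ± 114 (SD, n = 9 cells). By its mean it was number 320 of the 55487 genes, and its rank within a cell lay between 242 and 405. In each cell it stood 24.8-fold to 66.3-fold above the next member, which was Tle6 in 5 cells, Padi6 in 3 and Zbed3 in 1. Khdc3 thus made up 92.6% ± 2.44 (SD, n = 9) of the summed TPM of the 8 genes. That sum was 0.0537% of all TPM in the mean, and without Khdc3 it ranged from 19.0 to 53.6 TPM.

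**Figure D1:**
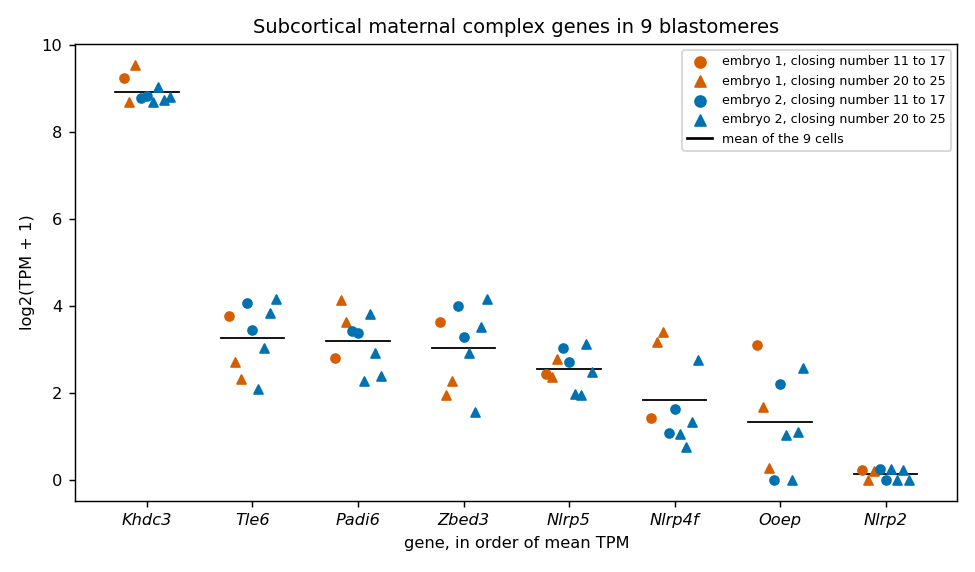
Level of each of the 8 genes in each of the 9 cells, as log2(TPM + 1), with genes in order of their mean. Points are single cells, colour marks the embryo and shape the closing number of the cell's label, and bars mark the mean. Khdc3 lies above all other members in every cell, whereas Ooep reaches 0 in 2 cells and Nlrp2 stays at or below 0.20 TPM.

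Among the other core genes, Tle6 (ENSMUSG00000034758.12, chr10:81590904-81601073, minus strand), which encodes a co-repressor relative in the complex, had 12.8, 5.57 and 3.98 TPM in cells 1, 6 and 7 of embryo 1. In embryo 2 it had 3.28 to 17 TPM with a median of 11.7 TPM. The embryos overlapped, and the mean was 9.88 TPM ± 5.11 (SD, n = 9). Nlrp5 (ENSMUSG00000015721.18, chr7:23385889-23441922, plus strand), the maternal effect gene that encodes MATER, had 4.46, 4.19 and 5.87 TPM in embryo 1. In embryo 2 the lowest cell had 2.88, the median was 5.11 and the highest cell had 7.80 TPM. Its mean was 5.06 TPM ± 1.71 (SD, n = 9), and it was above 1 TPM in all 9 cells.

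Ooep (ENSMUSG00000032346.7, chr9:78376109-78378725, minus strand), which encodes the other KH-domain protein of the core and binds NLRP5 and TLE6, was listed at 7.66, 2.2 and 0.21 TPM in cells 1, 6 and 7 of embryo 1. In embryo 2 it was listed at 0 in cells 2 and 6, at 3.66 in cell 3, 1.04 in cell 5, 1.15 in cell 7 and 4.99 TPM in cell 8. The highest value of each embryo was thus several TPM and the lowest near 0. A listed 0 can be a failed estimate here, since Gapdh, a gene of glycolysis used by all cells, was also listed at 0 in cell 6 of embryo 2. In cell 2 of embryo 2, the other cell with Ooep at 0, Gapdh was at 312 TPM. Ooep exceeded 1 TPM in 6 of 9 cells.

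Of the associated genes, Padi6 (ENSMUSG00000040935.12, chr4:140727355-140742643, minus strand), which encodes the egg's peptidylarginine deiminase, had 5.96, 16.6 and 11.3 TPM in embryo 1. Embryo 2 had 3.83 to 13.1 TPM with a median of 7.98 TPM, and the embryos overlapped. Zbed3 (ENSMUSG00000041995.8, chr13:95323612-95337841, plus strand) had 11.4, 2.88 and 3.82 TPM in embryo 1 and 1.94 to 17 TPM with a median of 9.63 TPM in embryo 2. Means over the 9 cells were 8.99 TPM ± 4.26 (SD) for Padi6 and 8.67 TPM ± 5.34 (SD) for Zbed3, and both genes were above 1 TPM in every cell. Nlrp4f (ENSMUSG00000032999.10, chr13:65177111-65205977, minus strand) had 1.69, 8.07 and 9.66 TPM in embryo 1, and 0.68 to 5.81 TPM with a median of 1.32 TPM in embryo 2. Nlrp2 (ENSMUSG00000035177.8, chr7:5298547-5351035, minus strand) was listed at 0 in 4 cells and at 0.16 to 0.20 TPM in the other 5. Nlrp2 was therefore the member with no cell above 1 TPM.

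Between neighbours in this order, only the first place held in every cell. Khdc3 exceeded Tle6 in 9 of 9 cells, with a mean log2 ratio of 5.66 ± 0.88 (SD over cells). Tle6 exceeded Padi6 in 5 of 9 cells and Padi6 exceeded Zbed3 in 4 of 9, with mean log2 ratios of 0.08 and 0.16 and SDs of 1.10 and 1.43. Zbed3 over Nlrp5, Nlrp5 over Nlrp4f and Nlrp4f over Ooep held in 6, 6 and 7 cells, and each mean ratio of 0.49, 0.70 and 0.51 was smaller than its SD of 0.79, 1.02 and 1.36. Between neighbours these 6 genes therefore had no order beyond their spread. Genes farther apart in the order could still differ in every cell. Tle6 and Zbed3 were each above Ooep in every cell. The lowest values of Tle6, Padi6, Zbed3, Nlrp5 and Nlrp4f were 3.28, 3.83, 1.94, 2.88 and 0.68 TPM, above the highest Nlrp2 value of 0.20 TPM. Ooep exceeded Nlrp2 in 7 of 9 cells, with a mean log2 ratio of 1.2 ± 1.18 (SD), which is close to its SD.

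Khdc3 varied little between the cells of embryo 2. Within embryo 2 its coefficient of variation was 8.43%, against 40.2% for Nlrp5, 45.7% for Padi6, 47.3% for Tle6, 55.5% for Zbed3 and 93% for Nlrp4f. Within embryo 1 the values were 28.9% for Khdc3 and 18.6% for Nlrp5, so that the order of these genes was the reverse there with 3 cells. The SD of log2(TPM + 1) within embryos, pooled over both, was 0.26 for Khdc3, and 2.41% of the 6860 genes that averaged 3 or more on this scale had a lower one. Among the 1393 genes with a mean of at least 100 TPM, nearer to Khdc3 in level, 7.68% had a lower one and the median was 0.47. When the SD was pooled within the label number ranges instead, Khdc3 had 0.31, and 8.88% of the 6860 genes and 25.1% of the 1393 genes were lower. For the low members the SD ran from 0.44 for Nlrp5 to 1.19 for Ooep, beside a median of 0.79 over the 11739 genes with a mean of at least 1 on that scale.

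The 4 KH relatives were above Ooep in every cell, over a wide range of levels. Dppa5a, a KH-domain gene of pluripotent cells, had 1685 to 3102 TPM, and Khdc1a, Khdc1c and Khdc1b, genes of a cluster active in oocytes and early embryos, had means of 125 TPM ± 50.2, 86.7 TPM ± 47.1 and 25.2 TPM ± 14.5 (SD, n = 9). The ratio of Dppa5a to Khdc3 was 4.05 to 5.22 in the 9 cells, with a mean of 4.52 ± 0.37 (SD), while Khdc3 itself ranged from 411 to 752 TPM. Ratios of Khdc3 to other abundant genes were not taken, so this value does not set the pair apart. None of the 4 KH relatives reached a log2 difference of 1 between embryos, and their median difference was -0.18. Over the 6860 genes 4.83% were higher and 6.05% lower by that much, so that 0 of 4 does not set them apart.

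The NLRP relatives, sensors or scaffolds with a NACHT domain, were low like the members. Of 18 relatives, 9 had a mean of at least 1 TPM and 4 were listed at 0 in every cell. Nlrp4c had 1.21 to 53.0 TPM with a median of 9.25 TPM. Nlrp5-ps, a pseudogene of Nlrp5, had a mean of 6.83 TPM ± 4.62 (SD, n = 9), and reads of Nlrp5 and Nlrp5-ps may have been shared between them by the counting. Nlrp14, an oocyte gene, also had a mean of 6.83 TPM. These 3 genes and Nlrp4g, at 5.56 TPM, exceeded Nlrp5 by their mean. Nlrp12 followed at 3.37 TPM, and Nlrp9c, Nlrp4e, Nlrp9b and Nlrp4a had means of 1.25, 1.23, 1.19 and 1.09 TPM. Nlrp4f is one of several related Nlrp4 genes, and reads of such paralogs are uncertain in their assignment.

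Among the other families, the TLE co-repressors Tle4, Tle3 and Aes stood above Tle6, with means of 165, 24.9 and 15.2 TPM, and Tle1 had 5.31 TPM. Tle2 was listed at 0 in all 9 cells. Padi6 was the leading PADI gene, as Padi2 had 3.76 TPM and Padi1, Padi3 and Padi4 lay below 1 TPM. Zbed4 had 19.0 TPM and Zbed5 2.21 TPM, on either side of Zbed3.

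**Figure D2:**
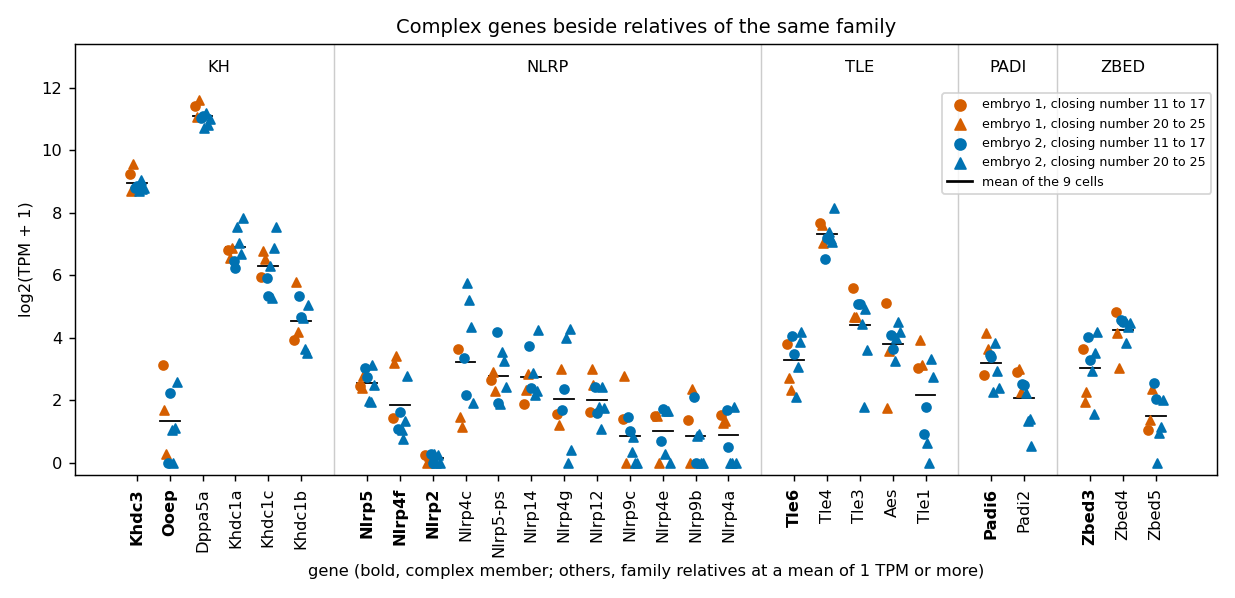
Level of the complex genes, in bold, and of the 20 family relatives with a mean of at least 1 TPM, as log2(TPM + 1) in each of the 9 cells. Points are cells, marked by embryo and closing number, and bars are means. Khdc3 lies between Dppa5a and the Khdc1 genes, whereas Ooep lies below all 4 of these relatives.

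The split between Khdc3 and Ooep was also seen beside their neighbours on chromosome 9, where both genes lie 5.27 Mb apart. Dppa5a lies 7.93 kb from Ooep, on the same strand, and was listed at a mean of 2242 TPM ± 446 (SD, n = 9). Omt2a and Omt2b, oocyte genes on the same side, had means of 4.97 and 4.72 TPM, close to the range of Ooep. Khdc3 lies 4.21 kb from Rab27a, at 12.6 TPM, and 8.99 kb from Rsl24d1, at 280.3 TPM. A gene model named Gm20509 overlaps Khdc3 by 1969 bases on the same strand and was listed at 0 to 3.38 TPM. How reads from the overlap were divided between them cannot be read from TPM.

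**Figure D3:**
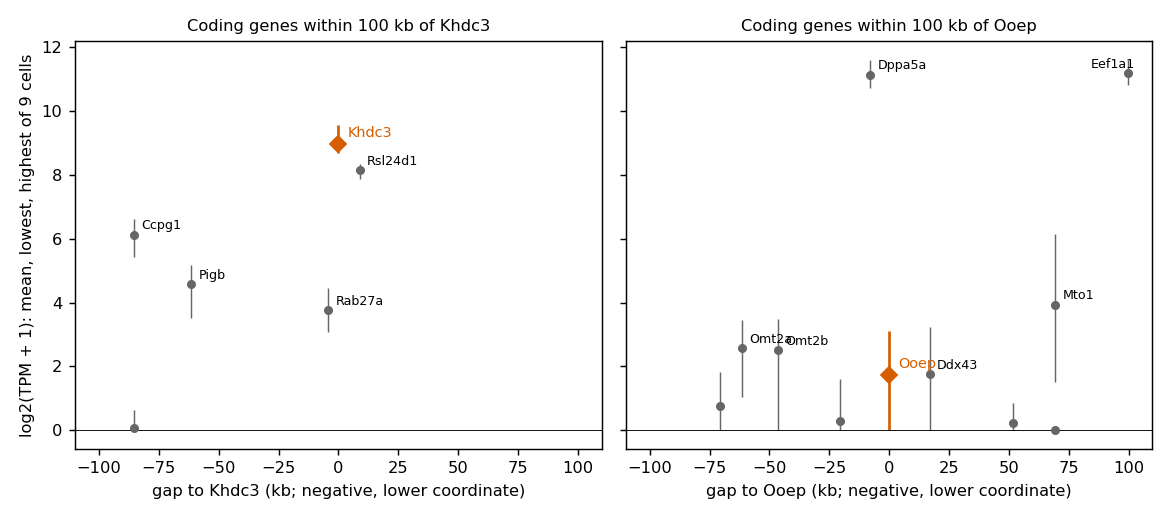
Level of Khdc3 and Ooep and of the coding genes within 100 kb of each, as log2(TPM + 1) against the gap to the gene in kb, with the overlapping model Gm20509 left out. Points are means of 9 cells and bars run from the lowest to the highest cell. Ooep lies near the floor of the plot although Dppa5a, 7.93 kb away, is among the high genes.

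A gene TPM sums over annotated transcripts, and for Tle6 almost none of it was assigned to transcripts that encode the protein. Tle6 has 14 annotated transcripts, of which 4 are protein-coding. Tle6-213 was the only protein-coding transcript above 0, at 1.09 TPM in cell 1 of embryo 1, and the summed protein-coding level was 0 in the other 8 cells. Over all cells 1.23% of the Tle6 signal was assigned to protein-coding transcripts. Tle6-205, a processed transcript of 1.81 kb at chr10:81590905-81592715 that covers the 3′ end of the 10.2 kb gene, was found in all 9 cells at 2.38 to 15 TPM and carried 63.4% of the signal. Tle6-214, a retained-intron transcript that shares this 3′ end, was found in 4 cells at 2.28 to 6.13 TPM. The protein-coding Tle6-201 and Tle6-210, listed at 0 in every cell, share the same 3′ end. Reads from there may not tell these classes apart, so the assignment does not show that coding Tle6 RNA was absent. Of the 3 cells with label numbers 11 to 17, all had Tle6-214. In cells 20 to 25, 1 of 6 did. The cells numbered 11 to 17 and 20 to 25 were, by the study's sample list, made with different lysis volumes. In its embryo data the study observed a 3′ bias of coverage with the version used for 20 to 25. The part of coverage in this assignment was not tested.

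The other genes were assigned mostly to coding transcripts, with less certainty at low level. Khdc3-201 carried 93.4% of the Khdc3 signal and between 89.9% and 98.2% in each cell, and all 4 Khdc3 transcripts are protein-coding. Ooep has a single transcript. Padi6-201 carried 83.6% of the Padi6 signal and was found in all 9 cells. Cell 7 of embryo 1 also had 6.95 TPM of the processed transcript Padi6-202, and cell 6 of embryo 2 had 6.35 TPM of Padi6-203. Zbed3-201 was the sole Zbed3 transcript in 8 cells, and Zbed3-202 was the sole one in cell 1 of embryo 1, at 11.4 TPM.

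Nlrp5 and Nlrp4f were assigned to different transcripts in different cells, whereas Nlrp2-201 was the only Nlrp2 transcript above 0. Nlrp5-202, protein-coding, carried 55.9% of the Nlrp5 signal and was found in 7 cells. Cell 6 of embryo 1 had 4.19 TPM of Nlrp5-205 alone, and cell 5 of embryo 2 had 2.96 TPM of Nlrp5-204 alone, both annotated as targets of nonsense-mediated decay. Protein-coding transcripts made up 77.1% of Nlrp5 in cells 11 to 17 and 51.1% in cells 20 to 25. Nlrp4f-206, also annotated for nonsense-mediated decay, was the only Nlrp4f transcript in cell 6 of embryo 1 and cell 8 of embryo 2, at 8.07 and 5.81 TPM, and was 0 in the other 7 cells. These are 2 of the 3 cells in which Nlrp4f exceeded 5 TPM.

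**Figure D4:**
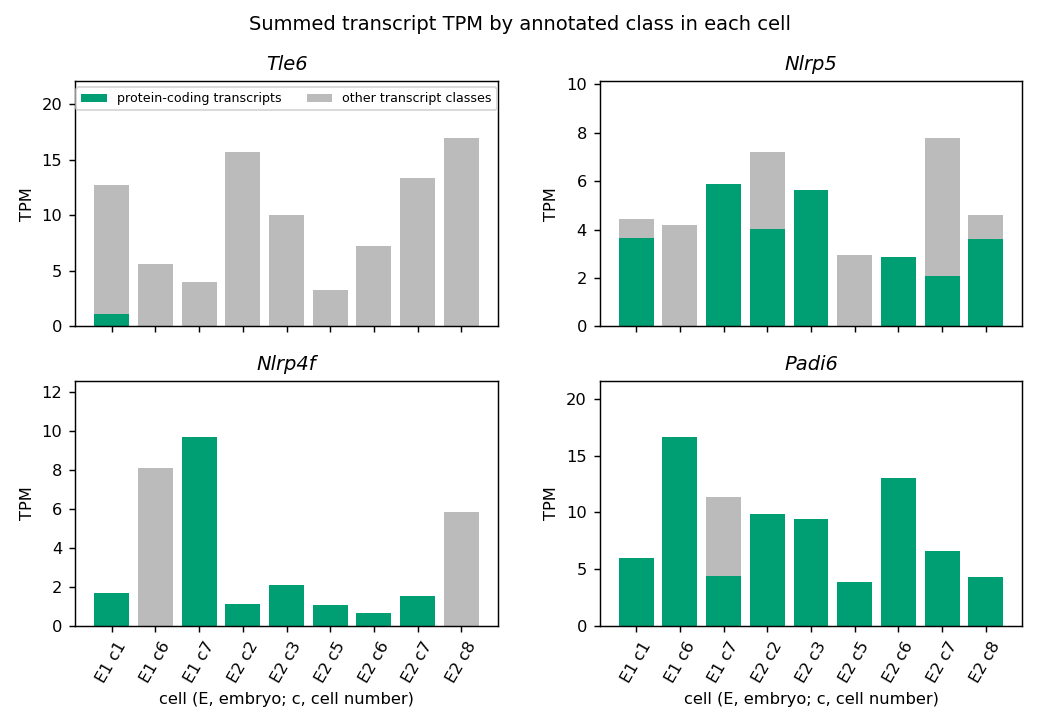
Summed TPM of protein-coding and of other annotated transcripts for 4 of the genes, as stacked bars for each cell, with the cell named by embryo and cell number. For Tle6 the protein-coding part is present in 1 cell at 1.09 TPM, while for Padi6 it is present in all 9 cells.

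Between embryos no member separated completely. The difference in mean log2(TPM + 1), embryo 2 minus embryo 1, was -0.34 for Khdc3, 0.51 for Tle6, -0.48 for Padi6 and 0.62 for Zbed3, the 4 members with a mean of at least 3 on this scale, and 0 of these 4 reached 1 in either direction. Over the 6860 genes past that filter 4.83% were higher and 6.05% were lower by at least 1. Of the 7 members with a mean of at least 1, which adds Nlrp5, Nlrp4f and Ooep, Nlrp4f was lower in embryo 2 by at least 1, and none was higher. In the 11739 genes of that filter 7.22% were higher and 9.71% lower by this measure. The cells of the 2 embryos overlapped for all 7 members, where 0.963% of genes lay wholly higher in embryo 2 and 2.69% wholly lower. These counts are near the background. The median over the 7 members was -0.34 and over all genes of that filter -0.05.

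Nlrp4f differed by -1.24 between the embryos, with an SD within embryos of 0.84. Within cells 11 to 17 the difference was -0.08 (1 cell against 2) and within cells 20 to 25 it was -1.82 (2 cells against 4). Without cell 6 or cell 7 of embryo 1 it was -0.99 and -0.87. On protein-coding transcripts alone it was -0.64. The call thus rested on the same 2 cells in which Nlrp4f was above 8 TPM. For Khdc3 the difference was -0.43 within cells 11 to 17 and -0.30 within cells 20 to 25, and -0.15 without cell 7 of embryo 1, the cell with 752 TPM. Nlrp5 differed by 0.02, less than its SD of 0.44, and Ooep differed by -0.53, less than its SD of 1.19. Ooep had no stable direction, with -2.0 within cells 11 to 17, 0.20 within cells 20 to 25 and 0.18 without cell 1 of embryo 1. Padi6 turned likewise, with 0.61 within cells 11 to 17 and -1.03 within cells 20 to 25. Tle6 and Zbed3 were at -0.02 and 0.02 within cells 11 to 17, and at 0.77 and 0.93 within cells 20 to 25. Nlrp2, the member under both filters, differed by -0.02. The mitochondrial share of TPM was 4.28% to 6.77% in embryo 1 and 5.98% to 18.2% in embryo 2, and TPM rescaled without those genes gave -1.19 for Nlrp4f and -0.25 for Khdc3. The part of the mitochondrial share in these differences was not tested.

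Between the cells numbered 11 to 17 and 20 to 25 no member reached a log2 difference of 1. Cells 11 to 17 had 12411 to 13319 genes above 1 TPM and cells 20 to 25 had 11058 to 11960. Zbed3 was 0.92 higher in cells 11 to 17, Tle6 0.74, Ooep 0.67 and Nlrp5 0.28, while Nlrp4f was at -0.71 and Khdc3 and Padi6 were at 0.04 and 0.01. The signs for Khdc3 and Padi6 turned, to -0.18 and -0.22, once the cells were aligned at their median gene. All 7 members overlapped. Among the 6860 genes 10.7% were higher and 4.29% lower by at least 1, and among the 11739 genes 14.9% were higher and 4.34% lower, with 6.76% wholly higher and 1.44% wholly lower. The median over those 11739 genes was 0.31 and over the 7 members 0.28, so that the members lay with the rest. On protein-coding transcripts alone the difference was 1.00 for Nlrp5, just under the call, and 0.28 for Nlrp4f.

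**Figure D5:**
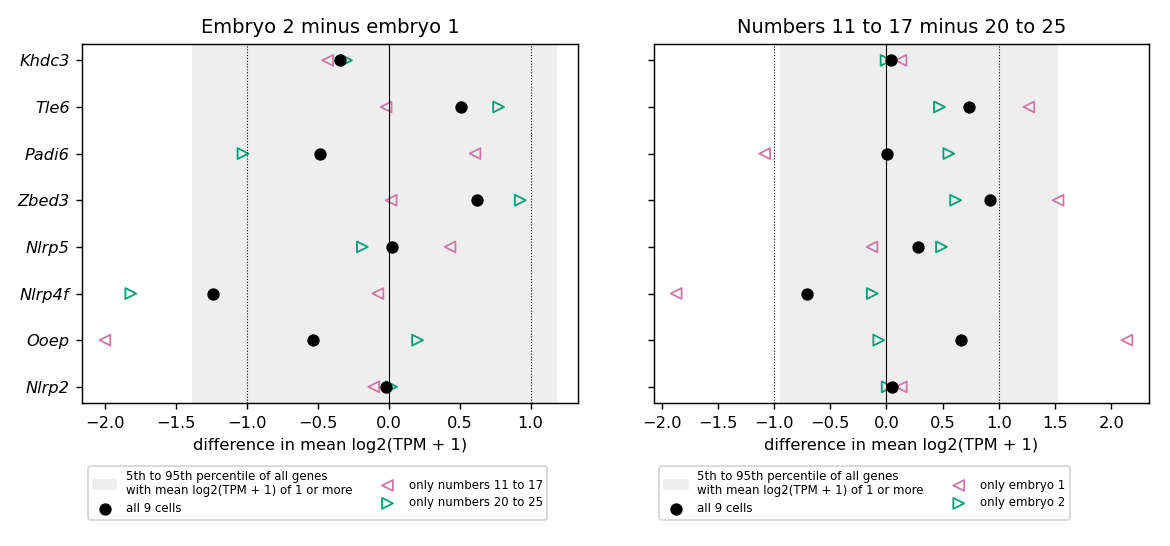
Difference in mean log2(TPM + 1) of each member between embryos (left) and between label number ranges (right). Filled points use all 9 cells, open triangles use only cells of 1 number range or 1 embryo, grey bands hold the 5th to 95th percentile of 11739 genes and dotted lines mark 1. Nlrp4f passes the line in the embryo comparison, and its value in cells 11 to 17 is near 0.

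The members did not vary together as a group. Over the 21 pairs of the 7 members with a mean of at least 1 TPM, Pearson's r of log2(TPM + 1) across the 9 cells had a median of 0.08 and ran from -0.66 to 0.74, and 12 pairs were above 0. The highest was Tle6 with Zbed3, genes on different chromosomes, with r = 0.74 and Spearman's rho = 0.82. It was 0.94 without the 2 cells farthest from the median of Tle6, 0.64 within embryo 2 and 0.66 after the mean of each number range was subtracted. The lowest was Padi6 with Zbed3, with r = -0.66. Tle6 and Zbed3 had r of 0.46 and 0.51 with the number of genes above 1 TPM in a cell, and the cells share their embryos and protocols. With 9 cells of low counts such values are descriptions only.

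For Nlrp5 the member most alike was Zbed3 (r = 0.53), for Ooep likewise Zbed3 (0.44), for Khdc3 it was Nlrp4f (0.29) and for Padi6 also Nlrp4f (0.26). Among 6036 genes above 1 TPM in every cell and at a mean of at least 10 TPM, those most like the mean of the 7 members were Cstb, Nsun5, Tk1, Tmem184c and Actr1a, with r of 0.94, 0.94, 0.92, 0.90 and 0.89 over 9 cells. Without the 2 cells farthest from the median of that mean, r was 0.58, 0.70, 0.49, 0.62 and 0.46. The 5 genes were picked as the highest of 6036 values, so high r was selected for. The fall cannot be put down to those 2 cells alone. No oocyte gene of the list below was among these 5, but 23 of those 26 genes averaged under 10 TPM and could not enter. Their absence therefore says little.

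The replication map was read at 7 of the 8 members, as 40 kb bins scored 1 where replicated and -1 where not in S-phase cells. Chromosome 10, and with it Tle6, was not analysed here. All 7 loci were scored -1 in the 3 cells of embryo 1. These cells had a nearly uniform score, with at most 3.54% of bins scored 1, and in a cell outside S phase a score of -1 cannot tell DNA before replication from DNA replicated throughout. In embryo 2, 6 of the 7 loci were replicated in all 6 cells, where 48.7% of 50126 bins with a state in each cell were. That share counts bins with and without genes, so it does not set the members apart from other gene loci. Ooep was replicated in 5 of the cells and unreplicated in cell 6, the cell with 62.4% of its bins replicated against 74.2% to 80.5% in the others. Ooep RNA was listed at 0 in that cell. It was also listed at 0 in cell 2, where the locus was replicated, and Dppa5a, inside the same bin, had 2355 TPM in cell 6, above the other cells of embryo 2. Within embryo 2 no other member had cells of both states to compare.

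Most genes of a chosen oocyte and maternal list were also low. The list of oocyte and maternal genes holds 26 genes, chosen by their known roles, and 17 had a mean of at least 1 TPM, 23 had less than 10 TPM and 18 were listed at 0 in at least 1 cell. Dppa3 (Stella), which guards maternal methylation marks, had 1138 to 2169 TPM and was the only one above 100 TPM. Uchl1, a ubiquitin hydrolase of the egg, had a mean of 30.3 TPM, the egg coat gene Zp3 22.7 TPM, Nlrp14 6.83 TPM and Zp2 6.70 TPM. Of the 26, 3 passed the filter of 3, and between embryos 0 of these were higher and 1, Uchl1, was lower, at a difference of -1.66, beside 4.83% and 6.05% of all genes. The SD of Uchl1 within embryos was 1.63, and its difference was -0.54 within cells 11 to 17. At the filter of 1, Npm2, Gdf9 and Zar1 were higher in embryo 2, at 1.26, 1.10 and 1.01, and Oosp1 was lower, at -1.78. Of the 11739 genes of that filter 7.22% were higher and 9.71% lower. The embryos did not overlap for Gdf9 and Oosp1, where 0.963% of genes lay wholly higher and 2.69% wholly lower. These added genes all averaged under 10 TPM.

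The cells carried the markers of their label. Pou5f1, Tfap2c, Klf5, Sall4, Nanog and Cdh1, genes of the pluripotent and early epithelial programme, were above 0 in all 9 cells, and Cdx2, the trophectoderm factor, was listed at 0 in 5. Of 9 cumulus and granulosa markers, 6 were listed at 0 in every cell, Foxl2, Amh, Fshr and Cyp19a1 were at or below 0.56 TPM, and the summed level was 0 in embryo 1 and 0 to 6.13 TPM in embryo 2, the latter from Ptx3 in cell 6. Of 5 sperm markers, 3 were listed at 0 in every cell, and the sum was 0 to 1.62 TPM. Cell 6 of embryo 2 had 525 TPM of Khdc3, 13.1 of Padi6 and 1.94 of Zbed3, and the part of carried-over cumulus RNA in these values was not tested.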

How the data were processed

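The labels list 26 samples, the RNA and the DNA of 13 blastomeres from 2 embryos (6 of embryo 1, 7 of embryo 2). The tables hold 9 of these cells, and the other 4 were not analysed here. The authors deposited gene and transcript TPM, estimated with RSEM on mm10 and GENCODE annotation after reads were set to a common number, and a replication score of 1, -1 or 0 per 40 kb bin. The tables hold no read counts and TPM keeps no depth per gene, so no counting interval or detection floor is given. For the DNA, the submitters' notes name BWA 0.7.17-r1188. Columns of the RNA tables share a name but for the closing number, and were assigned by that number. Each of the 3 tables also had columns of other samples, 14 in number, which were left out. As a check, sex-linked RNA split the 9 cells by embryo as so assigned.

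Symbols, coordinates and transcript classes came from GENCODE M21 by stable identifier, which named 55141 of 55487 genes. Differences are means of log2(TPM + 1), a scale that understates changes of low genes. A log2 difference of 1 was called, among genes with a mean of at least 3 and, added after seeing the data, of at least 1. The spread within embryos is the pooled SD. With 1 embryo a group no test between groups was run, and within embryo 2 single cells were set against Dixon's critical value. The functions were tested on simulated data. Python 3.11.15, numpy 2.4.6 and pandas 2.3.3 were used. Named genes were the members, relatives with a mean of at least 1 TPM, the 5 highest oocyte genes and those called, the marker lists and the 5 genes most alike. The members and lists were chosen with earlier results of these data known. Alternatives were other pseudocounts (0.1 and 10), scalings, transcript sums, label number ranges and leaving out each cell.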

Additional observations from a re-analysis of the deposited data

Results flagged for a closer look

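Within embryo 2, the 6 cells allow a look for a cell that stands apart, by the gap to the nearest other cell over the whole range against Dixon's 95% critical value. Of 34 values looked at, 3 passed, and chance passes about 1 in 20. Nlrp4f was at 5.81 TPM in cell 8 against 0.68 to 2.08 TPM in the other cells, and the mean of embryo 2 was 2.05 TPM with and 1.29 TPM without that cell. Its whole signal there was assigned to Nlrp4f-206. Nlrp9b was at 3.29 TPM in cell 2 against 0 to 0.90 TPM in the others. Zbed4 was at 13.2 TPM in cell 6 against 19.1 to 22.7 TPM. The 3 cells of embryo 1 were too few for this look.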

How the results depend on the processing

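No paired analysis was possible because no comparison had a test and the cell numbers of the 2 embryos mark unrelated blastomeres. The members lower in embryo 2 by at least 1 on the log2 scale numbered 1 as reported, 2 with a pseudocount of 0.1 (Ooep added), 0 with 10, and 2 within cells 20 to 25 (Padi6 added). Within cells 11 to 17 it was 1, but Ooep at -2.0 in place of Nlrp4f. On protein-coding transcripts alone, an alternative chosen after seeing the data, it was 0, and the uncalled difference of Tle6 turned from 0.51 to -0.35. Leaving out a cell gave 0 to 1 lower and 0 to 1 higher, the latter being Zbed3 at 1.13 without cell 1 of embryo 1. Without cell 7 of embryo 1 the 1 lower member was Ooep, at -1.24. Between number ranges, 0 were higher and 0 lower, against 1 higher with a pseudocount of 0.1, and 3 higher and 2 lower within embryo 1 alone, where 1 cell meets 2. Leaving out a cell gave 0 to 1 higher, either Zbed3 or, without cell 2 of embryo 2, Ooep at 1.56, and 0 lower. Of the 5 genes most like the members, 1 was among the leading 5 by Spearman's rho and 3 after number range means were subtracted. The one NLRP relative past the filter, Nlrp4c, turned from 1.70 between embryos to -0.88 within cells 11 to 17. The causes were not tested. The share of Khdc3 among the members stayed between 92.2% and 93%, and the summed share between 0.0506% and 0.0550% of TPM, when each cell was left out. Khdc3 had the lowest spread of the 7 members above 1 TPM by CV, with a pseudocount of 0.1 and with cells centred on their median. The number of members led by a coding transcript (6) and of loci replicated throughout embryo 2 (6) were the same under their alternatives. With no read counts, low members cannot be told from 0 in a cell.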
